A study of Ictidomys tridecemlineatus with 15 samples.

Results

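Hmgb3, Ypel1, Jpt1 and PPP3R1_like are 4 of the 6324 transcribed units counted by global run-on sequencing (GRO-seq) in the liver of the 13-lined ground squirrel. The method lets polymerases that were already on a gene extend their RNA with a labelled nucleotide. It thus counts polymerases engaged on the gene and not stored RNA, and their speed in the animal is not measured. A unit is the body of a gene, or of several overlapping genes counted together, and 4705 of the units carry a single gene name. The 4 units were selected on their measured values, as single-gene units with the strongest rise into torpor, either from entrance to early torpor or between interbout arousal and late torpor. All 4 named units had reads in every library and none was lost to a filter on low counts.

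The animals were laboratory-housed females from a university breeding colony in Wisconsin, implanted with loggers of body temperature. Livers were frozen in 5 states: SA, summer active before hibernation; IBA, interbout aroused, the short warm period between torpor bouts; Ent, entrance into torpor; ET, early torpor; and LT, late torpor. Each state had 3 animals except LT, with 2, whose replicate 2 was not used here. Nuclei of the frozen tissue ran on with a bromouridine label at a warm temperature, whatever the body temperature of the animal had been. The labels give no genotype, strain or age.

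Library totals on the units ran from 3713883 to 8884763 reads. Values are given as CPM, the usual count scale that sets every library to the same total, here after the TMM factors of edgeR, so that each is a share of its library and not an amount per nucleus. Whole liver was used, and fewer cells of a type and less RNA per cell cannot be told apart. The study's animal table places SA replicate 1, Ent replicates 1 and 2 and both LT libraries in the first of several collection seasons, all ET libraries in the second, and the other libraries in the third. Differences between ET and any other state therefore cannot be told apart from season.

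The proteins of these genes act in separate parts of the cell. Hmgb3 belongs to the high mobility group box proteins, which bind and bend DNA in chromatin and are best known from dividing and progenitor cells. Calcineurin is a phosphatase switched on by calcium and calmodulin, and PPP3R1 is its regulatory B subunit, which binds calcium and joins the catalytic A subunit to act on NFAT transcription factors and other substrates. Jpt1, also called Hn1, is a small protein related to the Jupiter microtubule protein of the fly, and Ypel1 is one of the Yippee-like zinc-binding proteins.

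Hmgb3 was the member with the fewest reads in warm animals. It had 2.41, 2.48 and 3.21 CPM in SA replicates 1 to 3 and 0.853, 1.67 and 3.83 CPM in IBA replicates 1 to 3. The Ent libraries had 5.28, 8.31 and 15.9 CPM, the ET libraries 50.1, 52.8 and 48.4 CPM, and the LT libraries 44 and 33.9 CPM. SA and IBA overlapped, every Ent library lay above both of them, and every torpid library lay above every Ent library. The lowest value, in IBA replicate 1, rested on 3 reads, with a 95% Poisson interval of 0.619 to 8.77 reads that covers counting error only. In order of their means the states ran IBA, SA, Ent, LT, ET, with 2.12 ± 1.54 (SD, n = 3), 2.70 ± 0.443 (n = 3), 9.82 ± 5.45 (n = 3), 38.9 ± 7.15 (n = 2) and 50.4 ± 2.26 CPM (n = 3). The difference between IBA and SA was smaller than the spread within IBA.

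PPP3R1_like, the unit named after the calcineurin B subunit, was even across summer animals, with 5.54, 6.05 and 5.82 CPM. IBA libraries had 6.82, 3.34 and 3.67 CPM and Ent libraries 6.20, 10.3 and 12 CPM. The highest IBA library lay above the lowest Ent library, so that these states overlapped. In torpor the unit reached 53.2, 65.0 and 42.5 CPM in ET and 33.6 and 32.8 CPM in LT. Both LT libraries lay below every ET library and above every library of the other 3 states. The means were 5.81 ± 0.254 CPM for SA, 4.61 ± 1.92 for IBA, 9.50 ± 2.98 for Ent and 53.5 ± 11.3 for ET (SD, 3 libraries each), and LT had 33.2 ± 0.504 CPM (SD, n = 2).

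In Jpt1 the Ent libraries overlapped both SA and IBA. SA libraries had 6.75, 10.7 and 6.54 CPM, IBA libraries 6.82, 4.39 and 4.79 CPM, and Ent libraries 5.94, 5.90 and 8.45 CPM. These 9 values formed a single overlapping range. The ET libraries had 34.2, 26.5 and 23.0 CPM and the LT libraries 55.9 and 44.6 CPM, with no overlap between ET and LT or between either and the other states. The means were 8.0 ± 2.36, 5.33 ± 1.3, 6.76 ± 1.46 and 27.9 ± 5.72 CPM in that order of states up to ET (SD, n = 3 each) and 50.3 ± 7.99 CPM in LT (SD, n = 2).

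Ypel1 varied most among summer animals, with 16.4, 4.13 and 12.6 CPM in SA replicates 1 to 3. The IBA libraries had 5.12, 4.60 and 7.02 CPM, within the SA range. Ent libraries had 16.0, 29.8 and 17.9 CPM, all above IBA, although SA replicate 1 lay among them. ET libraries had 81.0, 73.7 and 48.7 CPM and LT libraries 80.3 and 69.2 CPM, and ET and LT overlapped. State means were 11 ± 6.28, 5.58 ± 1.28, 21.2 ± 7.47 and 67.8 ± 16.9 CPM from SA to ET in the same order (SD, n = 3 each) and 74.7 ± 7.81 CPM in LT (SD, n = 2).

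**Figure D1:**
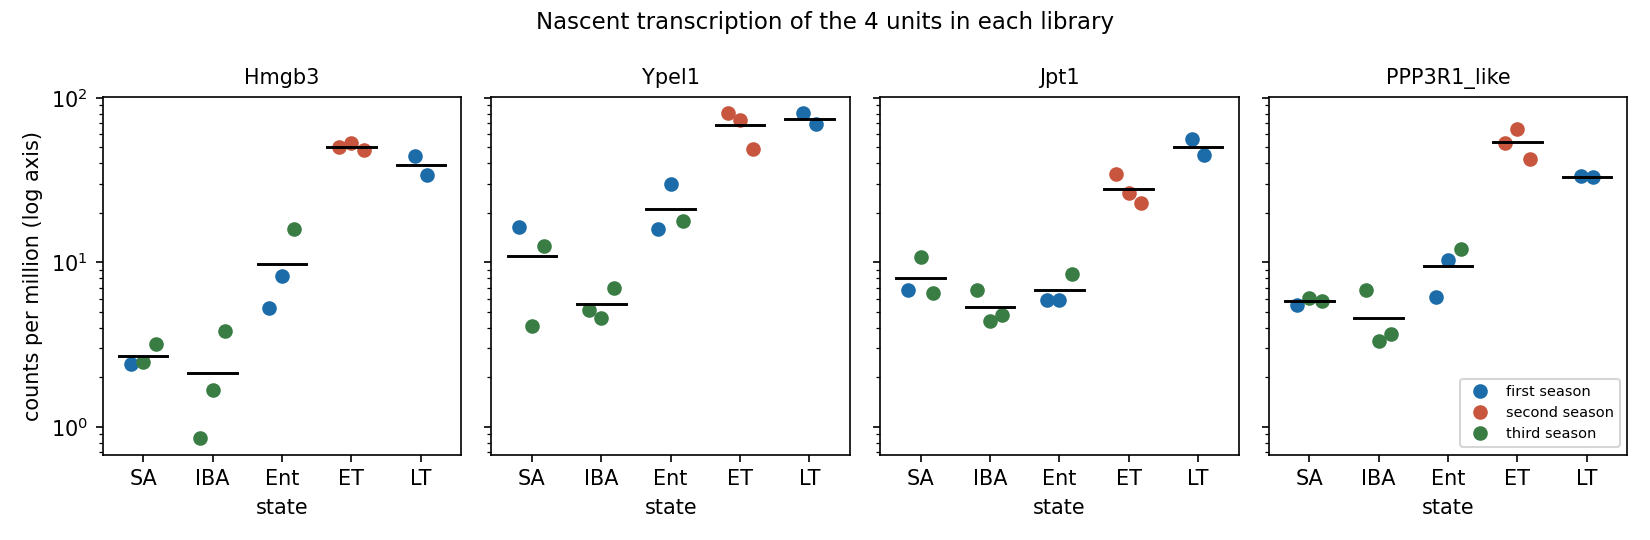
CPM (vertical log axis) of Hmgb3, Ypel1, Jpt1 and PPP3R1_like in each of 14 GRO-seq libraries, by state (SA, IBA, Ent, ET, LT on the horizontal axis); each point is a library, coloured by collection season, and each bar is the mean of its state. All 5 ET and LT libraries lie above all 9 other libraries in each panel, and Jpt1 in Ent lies within the range of SA and IBA.

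In each of the 4 units the lowest torpid library lay above the highest of the 9 SA, IBA and Ent libraries, by a ratio of 1.63 in Ypel1, 2.14 in Hmgb3 and in Jpt1, and 2.74 in PPP3R1_like. The same separation held for 885 of all 6324 units (14%), and since the members were chosen by their rise into torpor nothing is read from their count. The values that chose them were the fitted log2 fold changes of Ent to ET and of IBA to LT, which are given here as a description without a test. From Ent to ET these were 2.50 for PPP3R1_like, 2.36 for Hmgb3, 2.04 for Jpt1 and 1.68 for Ypel1, which rank 1, 2, 6 and 13 among the 4705 single-gene units. From IBA to LT they were 4.08 for Hmgb3, 3.72 for Ypel1, 3.25 for Jpt1 and 2.88 for PPP3R1_like, with ranks 1, 2, 6 and 11. The Hmgb3 value ran from 3.78 without IBA replicate 1 to 4.87 without IBA replicate 3. With the rank taken only over units past an adjusted p of 0.001 in edgeR whose libraries did not overlap between the states, PPP3R1_like and Jpt1 led Ent to ET and Hmgb3 and Ypel1 led IBA to LT. Hmgb3 and Ypel1 were not past that threshold in Ent to ET and have no such rank there. The threshold serves there as a filter and not as a test, and without Ent replicate 1 or ET replicate 2 edgeR placed 0 units past it in Ent to ET, where 2562 had an unadjusted p of 0.05 or less with all libraries and DESeq2 called 937. The next units in those orders were Slc25a29, with 2.00 in Ent to ET, and Fgfrl1, with 3.46 in IBA to LT. ET libraries lay above all Ent libraries in 1427 units (22.6%), and LT libraries above all IBA libraries in 2266 units (35.8%).

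Within the first season, which holds no IBA or ET library, the mean of the LT libraries stood above that of the 2 Ent libraries by 2.48 log2 CPM in Hmgb3, 1.76 in Ypel1, 3.01 in Jpt1 and 2.01 in PPP3R1_like. The difference between LT and SA within that season rested on a single SA library. It was 3.83 in Hmgb3, 2.16 in Ypel1, 2.83 in Jpt1 and 2.51 log2 CPM in PPP3R1_like. These libraries also entered the choice of the members, so nothing is read from the direction. No season holds libraries of both Ent and ET, or of both IBA and LT. With season added to the fit, which reaches IBA and LT through SA and Ent, the IBA to LT differences were 4.99 in Hmgb3, 3.12 in Ypel1, 3.67 in Jpt1 and 3.24 in PPP3R1_like.

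The members differed in how much of the rise from IBA to LT was present during entrance. On the scale of mean log2 CPM, Ent had reached 50.3% of the difference in Hmgb3, 49.8% in Ypel1, 35.6% in PPP3R1_like and 10.4% in Jpt1. The Jpt1 share moves with single libraries. Its fitted IBA to Ent difference of 0.36 was 0.17 without Ent replicate 3 and 0.55 without IBA replicate 1. ET had reached 109% in Hmgb3 and 123% in PPP3R1_like, where values above 100 mean that ET stood above LT, 95.4% in Ypel1 and 73.1% in Jpt1. The IBA, Ent, ET and LT values behind these shares are those that chose the members, and a choice by Ent to ET favours a low Ent, so the order of the shares is a description only. Whether these timings differ between the genes was not tested.

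The comparisons that did not choose the members were tested with the quasi-likelihood test of edgeR, with a threshold of 0.001 on p-values that the Benjamini-Hochberg method adjusts across the 6324 units. They use libraries that also entered the choice, so that a low IBA or Ent value, or a high ET or LT value, bears on both. From SA to IBA none of the 4 members passed the threshold, and 1 of all units did (0.0158%). At an unadjusted p of 0.05 or less there were 1 member, Ypel1, and 1393 units, and DESeq2 called 0 members and 221 units at the same threshold. Fitted log2 fold changes lay between -0.98 ± 0.42 (SE) in Ypel1, with an adjusted p of 0.193 in edgeR, and -0.27 ± 0.51 in Hmgb3, with an adjusted p of 0.808 in edgeR. The Hmgb3 value was 0.03 without IBA replicate 1 and -1.07 without IBA replicate 3.

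From IBA to Ent the members differed by unequal amounts. Hmgb3 was 4.26-fold higher in Ent than in IBA in the fit (log2 fold change 2.09 ± 0.45 SE, edgeR adjusted p = 0.0107), with a range of 1.56 without Ent replicate 3 to 2.88 without IBA replicate 3, and Ypel1 3.74-fold higher (1.90 ± 0.41, edgeR adjusted p = 0.0106). Neither passed the threshold of 0.001, although for both genes all 3 Ent libraries lay above all 3 IBA libraries, as they did in 1421 of all units (22.5%). PPP3R1_like differed by 1.08 ± 0.31 (edgeR adjusted p = 0.0335) and Jpt1 by 0.36 ± 0.28 (edgeR adjusted p = 0.406), and for both the states overlapped. No member was called by edgeR, against 2 of all units (0.0316%), while 3 members and 2056 units had an unadjusted p of 0.05 or less. DESeq2 called 2 members, Hmgb3 with an adjusted p of 0.00013 and Ypel1 with 9.6e-05, and 447 units. Within the third season, where Ent has a single library, Ent stood above the mean of IBA by 2.91 log2 CPM in Hmgb3, 1.65 in Ypel1, 1.38 in PPP3R1_like and 0.66 in Jpt1.

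Against summer the entrance values stood less high. From SA to Ent the log2 fold change was 1.82 ± 0.44 in Hmgb3 (edgeR adjusted p = 0.013), with every Ent library above every SA library, as in PPP3R1_like and in 1263 of all units (20%). It was 0.92 ± 0.39 in Ypel1 (edgeR adjusted p = 0.103), 0.70 ± 0.30 in PPP3R1_like (edgeR adjusted p = 0.105) and -0.22 ± 0.27 in Jpt1 (edgeR adjusted p = 0.588), which was 0.03 without SA replicate 2. No member was called by edgeR, against 49 of all units (0.775%), with 3 members and 2345 units at an unadjusted p of 0.05 or less. DESeq2 called 643 units and 1 member, Hmgb3, with an adjusted p of 0.00057. Within seasons these differences rest on a single SA library in the first season and on a single Ent library in the third. In Hmgb3 Ent stood above SA by 1.34 log2 CPM in the first season and by 2.36 in the third. In Jpt1 the same differences were -0.18 and 0.01. They were 0.41 and 1.27 in Ypel1 and 0.50 and 0.98 in PPP3R1_like.

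Between early and late torpor no member passed the threshold. The log2 fold change was 0.85 ± 0.27 in Jpt1 (edgeR adjusted p = 0.265) and -0.69 ± 0.30 in PPP3R1_like (edgeR adjusted p = 0.529). Hmgb3 differed by -0.37 ± 0.40 (edgeR adjusted p = 0.913) and Ypel1 by 0.14 ± 0.40 (edgeR adjusted p = 0.98), a value that was -0.05 without ET replicate 3. The ET and LT libraries did not overlap in Jpt1, PPP3R1_like and Hmgb3, nor in 1516 of all units (24.0%). By edgeR 0 members and 0 of the 6324 units (0%) were called. At an unadjusted p of 0.05 or less there were 2 members and 550 units, and DESeq2 called 0 members and 37 units. ET and LT were collected in separate seasons, which cannot be told apart from the time in torpor. High ET values and high LT values also entered the choice of the members, so nothing is read from the direction of these differences.

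Unit length separates the members into a short and a longer pair. The PPP3R1_like unit spans 5555 nt and the Hmgb3 unit 6834 nt, ranks 102 and 176 from the shortest among single-gene units. Jpt1 spans 15576 nt, rank 889, and Ypel1 26771 nt, rank 1812, against a median of 36217 nt. There were 378 single-gene units under 10000 nt, and their median log2 fold change was -0.37 from Ent to ET and -0.59 from IBA to LT, against -0.02 and -0.09 over all single-gene units. Of the short units, 4 (1.06%) were called higher and 16 (4.23%) lower from Ent to ET by edgeR, against 1.13% and 1.17% of all single-gene units. From IBA to LT 21 (5.56%) were called higher and 60 (15.9%) lower, against 9.46% and 8.18%. Among the short units a lower share of the library in torpor was thus the more frequent call, and the higher values of Hmgb3 and PPP3R1_like are those that chose them.

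Per kilobase of unit, the scale on which levels of different genes can be compared, all 4 members were low in SA and IBA. In IBA their means were 0.208 CPM per kb in Ypel1, 0.310 in Hmgb3, 0.342 in Jpt1 and 0.830 in PPP3R1_like, ranks 4660, 4632, 4616 and 4184 from the highest of 4705 single-gene units, whose median was 2.04. In SA, which lies outside the comparisons that chose the members, they were 0.395 in Hmgb3, 0.412 in Ypel1, 0.514 in Jpt1 and 1.05 in PPP3R1_like. Their SA ranks were 4578, 4561, 4487 and 3877, and the median was 2.12. In ET PPP3R1_like had 9.64 ± 2.03 (SD, n = 3) and Hmgb3 7.38 ± 0.331 CPM per kb, ranks 211 and 384. Ypel1 had 2.53 ± 0.633, rank 1931, and Jpt1 1.79 ± 0.367, rank 2672. In ET the shorter units thus stood near the top of the order and the longer pair at its middle. The IBA, ET and LT values are among those that chose the members, so this change of order is a description only. In LT the values were 5.98 in PPP3R1_like, 5.70 in Hmgb3, 3.23 in Jpt1 and 2.79 CPM per kb in Ypel1, ranks 480, 519, 1379 and 1663.

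Neighbouring units were examined because polymerases that pass the end of an upstream gene can enter the body of the next gene on the same strand. Coordinates are those of the deposited table, on the HiC_Itri_2 assembly. For each member the nearest unit on each side and the nearest unit of the same strand upstream and downstream were taken, 14 units in all. None of the 14 was called in SA to IBA, IBA to Ent, SA to Ent, Ent to ET or ET to LT by edgeR, where DESeq2 called 1, 1, 3, 2 and 0 and where 2, 3, 6, 5 and 0 had an unadjusted p of 0.05 or less. From IBA to LT edgeR called 1 of them, which was higher, against 613 of all units called higher (9.69%) and 489 called lower (7.73%). Over the 14 units the median log2 fold change was -0.24 from Ent to ET and -0.47 from IBA to LT, against -0.01 and -0.05 over all units.

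The unit called was Gga3, which encodes an adaptor protein of transport from the Golgi apparatus and is the nearest same-strand unit upstream of Jpt1. Jpt1 runs from 5961608 to 5977183 on Itri7, plus strand, and Gga3 ends 81492 nt before it. Gga3 had 30.7, 28.2 and 31.1 CPM in IBA and 35.2, 41.3 and 34.2 CPM in Ent. It had 83.9, 61.5 and 64.3 CPM in ET and 81.9 and 83.1 CPM in LT, so that, as in Jpt1, all torpid libraries lay above all others. Between IBA and LT it differed by 1.46 ± 0.21 on the log2 scale (edgeR adjusted p = 0.00014), smaller than the 3.25 of Jpt1, and from Ent to ET it was 0.92 ± 0.19 (edgeR adjusted p = 0.0039). The IBA to LT call was lost when season was added and when either LT library was left out, where the adjusted p reached up to 0.0049 in edgeR and the log2 fold change lay between 1.35 and 1.47. RefSeq, on its own assembly mIctTri1.hap1, places 2 protein-coding genes, Nup85 and Sumo2, between Gga3 and Jpt1, and neither has a unit in the table. On the other side of Jpt1, Armc7:Slc16a5 lies 3619 nt away on the opposite strand and had a log2 fold change of -0.76 ± 0.17 from Ent to ET (edgeR adjusted p = 0.0065). Atp5h, the next unit downstream on the same strand, lies 56420 nt away and differed by 0.16 ± 0.24 from Ent to ET (edgeR adjusted p = 0.641). It was higher by 0.99 ± 0.26 from IBA to LT (edgeR adjusted p = 0.0082) and by 1.04 ± 0.25 from SA to Ent (edgeR adjusted p = 0.0115). Neither difference passed the threshold.

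Ypel1 lies on the minus strand of Itri2 from 140768564 to 140795334, and its neighbours are described here on the downstream side only. At its downstream end Ypel1 overlaps LOC101971249:Ppil2, on the opposite strand, by 2039 nt. That unit was not called in any comparison, with -0.28 ± 0.16 from Ent to ET (edgeR adjusted p = 0.217). Whether the counting used the strand of the reads is not given in the sources used here, so reads in the overlap may have been shared or left out. Hic2, a transcriptional repressor gene 219965 nt downstream on the same strand, had 0.83 ± 0.18 from IBA to Ent (edgeR adjusted p = 0.0117).

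The short members stand alone in the table. Hmgb3 lies on the plus strand of Itri10 from 116729751 to 116736584, with no unit within 920570 nt upstream or 2108447 nt downstream on either strand, and the nearest same-strand unit upstream, the coagulation factor gene F9, is 9164803 nt away. PPP3R1_like lies on the plus strand of Itri12 from 15887919 to 15893473, with Antxr1 606112 nt upstream and Etaa1 692127 nt downstream, both on the opposite strand, and Gfpt1 as the nearest same-strand unit upstream, 919882 nt away. F9 and Gfpt1 had log2 fold changes of -0.79 ± 0.29 (edgeR adjusted p = 0.0365) and -1.50 ± 0.36 (edgeR adjusted p = 0.0044) from IBA to LT. Genes without a unit in the table can lie in these gaps. In RefSeq Hmgb3 is on chromosome X between Gpr50 and Cd99l2, and 38 protein-coding genes lie between it and Bcap31, the nearest unit downstream in the table.

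RefSeq gave the symbols of 3 of the 4 members, and PPP3R1_like is not a symbol there. The gene Ppp3r1 lies in RefSeq on chromosome 12, between Cnrip1 and Pno1, with 10 protein-coding genes between it and Antxr1 and 3 between it and Etaa1. The PPP3R1_like unit thus lies in the same interval of gene order as Ppp3r1. Whether the unit is that gene was not tested, and the name is used here as the table gives it.

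**Figure D2:**
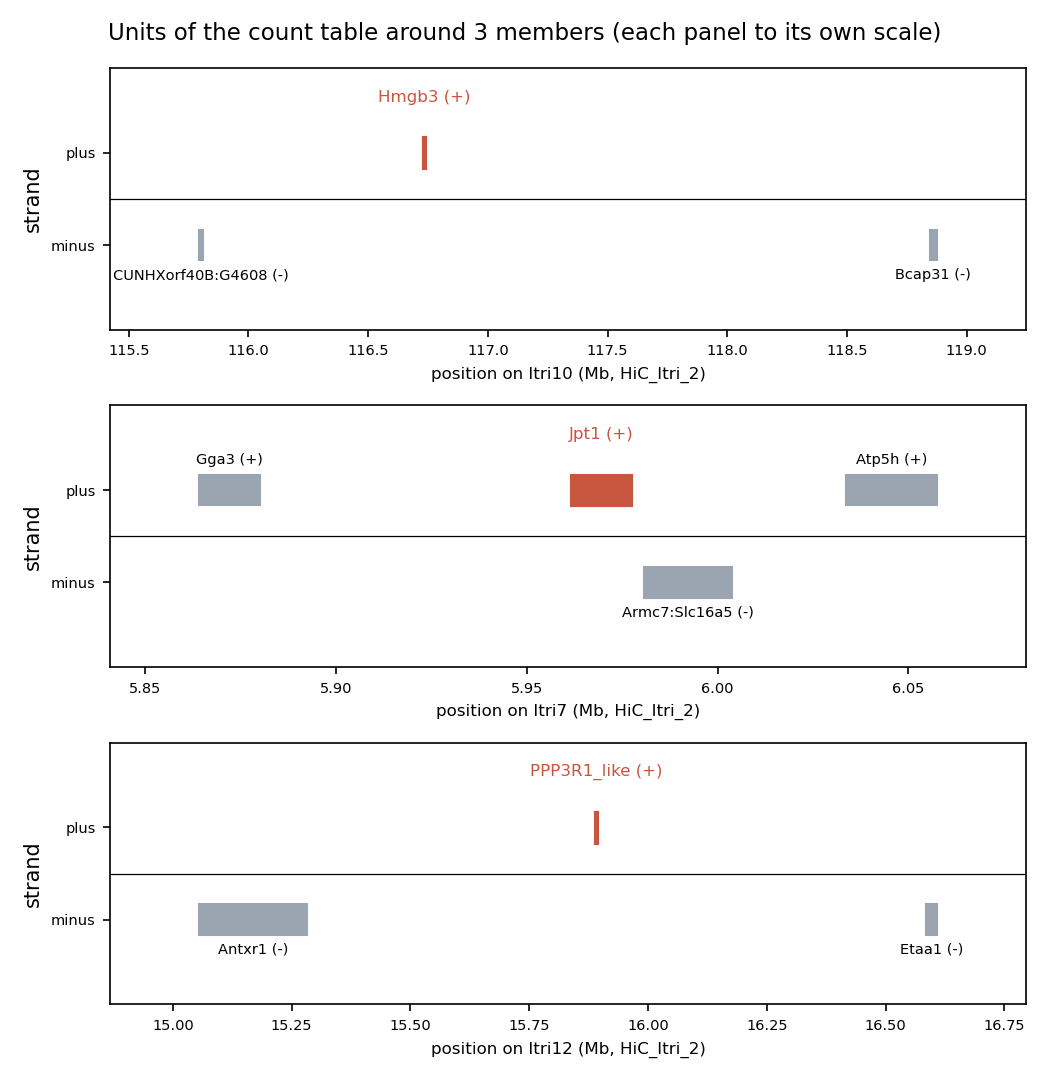
Positions of Hmgb3, Jpt1 and PPP3R1_like (red) and of neighbouring units of the count table (grey) in megabases of the HiC_Itri_2 assembly, with plus-strand units above the line and minus-strand units below it; each panel has its own scale and shows the nearest unit on each side, with the nearest same-strand units added for Jpt1. Jpt1 lies 81492 nt from Gga3 on the same strand, and Hmgb3 and PPP3R1_like have no other unit within 606112 nt.

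The other high mobility group units showed whether Hmgb3 stood by itself. Of 14 genes listed, 5 had a unit, 2 of them merged with another gene name. Hmgb1, merged with an Hmgb1-like model, rose from 17.9 ± 0.650 CPM in IBA to 244 ± 15.3 CPM in LT, a log2 fold change of 3.77 ± 0.30 (edgeR adjusted p = 6.8e-06). Hmgb2 rose from 9.08 ± 2.50 to 98.7 ± 28.3 CPM, by 3.46 ± 0.37 (edgeR adjusted p = 2.3e-05). Both encode the close relatives of Hmgb3 with paired HMG boxes. Hmgn1, a nucleosome-binding protein whose unit is merged with a gene model, rose by 1.86 ± 0.18 (edgeR adjusted p = 1.6e-05). These 3 calls, of a kind made for 9.69% of all units, held in every alternative tried. Hmgxb3, which carries an HMG box but belongs to another branch, had -0.43 ± 0.13 (edgeR adjusted p = 0.0155) and was not called. A merged unit of 4 names that contains another Hmgb1-like model, Ttll5:HMGB1_G27518:Flvcr2:G27442, differed by -0.30 ± 0.22 (edgeR adjusted p = 0.278).

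The earlier steps were smaller in Hmgb1 and Hmgb2 than in Hmgb3, a difference that was not tested. From IBA to Ent the log2 fold change was 1.53 ± 0.27 in Hmgb1 (edgeR adjusted p = 0.0045) and 1.57 ± 0.34 in Hmgb2 (edgeR adjusted p = 0.0106), beside 2.09 in Hmgb3. From Ent to ET Hmgb1 rose by 1.77 ± 0.26 (edgeR adjusted p = 0.00082) and Hmgn1 by 1.17 ± 0.17 (edgeR adjusted p = 0.00073), 2 of the 64 units called higher in that step (1.01%), while 76 units were called lower (1.20%). Both calls were lost in 12 of 20 alternatives, among them the leaving out of any IBA, Ent, ET or LT library, with adjusted p up to 0.0044 in edgeR for Hmgb1 and 0.0042 for Hmgn1. Hmgb2 had 1.23 ± 0.31 (edgeR adjusted p = 0.0123), beside 2.36 in Hmgb3. Per kilobase, Hmgb1 was the highest of the 3 HMGB units in LT, with 19.0 CPM per kb, followed by Hmgb2 with 8.01 and Hmgb3 with 5.70. Only uniquely aligned reads were counted, and stretches that near-identical copies share can be missing from each of these units.

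Among the partners of calcineurin B, the list of 8 calcineurin and calmodulin genes had 2 units. Ppp3cc, a catalytic A subunit, averaged 39.9 ± 5.17 CPM for SA, 50.3 ± 1.81 for IBA, 62 ± 17.1 for Ent and 71.5 ± 1.88 for ET (SD, 3 libraries each), and 70.6 ± 1.93 CPM in LT (SD, n = 2). It was not called in any comparison, with 0.49 ± 0.19 from IBA to LT (edgeR adjusted p = 0.0525). Calm2:Stpg4, which holds a calmodulin gene, rose by 2.33 ± 0.23 from IBA to LT (edgeR adjusted p = 1.4e-05), from 63.9 ± 9.03 to 321 ± 100 CPM. This call held in every alternative tried.

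Of 11 regulators of calcineurin listed, 4 had a unit, and 2 were called higher from IBA to LT, where 9.69% of all units were. Ppia, the cyclophilin that blocks calcineurin when bound to cyclosporin, rose by 1.48 ± 0.17 (edgeR adjusted p = 3.2e-05), and Chp1, a calcium-binding homologue of calcineurin B, by 1.02 ± 0.13 (edgeR adjusted p = 6.1e-05). Both calls were lost with season added, and that of Chp1 also without LT replicate 1, with an adjusted p of up to 0.0019 in edgeR. Ppia also rose from SA to Ent, by 1.11 ± 0.15 (edgeR adjusted p = 0.00099), 1 of 19 units called higher there (0.300%), a call that was lost in 16 of 22 alternatives, among them the leaving out of any library but SA replicate 1, with adjusted p up to 0.0052. Cabin1, an inhibitor, and Akap5:Mthfd1, which holds an anchoring protein of calcineurin, were not called. The median log2 fold change of the 4 units from IBA to LT was 0.59, against -0.05 over all units.

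Of 15 calcineurin substrates listed, 10 had a unit, and 1 was called from IBA to LT, lower, as were 7.73% of all units. Bad, a proapoptotic protein that calcineurin dephosphorylates, fell from 38.3 CPM in IBA to 17.6 in Ent, 2.28 in ET and 2.09 in LT. The fitted difference was -4.19 ± 0.50 from IBA to LT (edgeR adjusted p = 4.5e-05) and -2.93 ± 0.41 from Ent to ET (edgeR adjusted p = 0.00071). The first call was lost under limma-voom and without LT replicate 1, where the adjusted p reached up to 0.0016. The second was lost in 13 of 21 alternatives, limma-voom and the leaving out of any IBA, ET or LT library, of SA replicate 3 and of Ent replicates 1 and 2 among them, with adjusted p up to 0.0095. The other 9 substrate units lay between -0.74 and 1.75 ± 0.35 from IBA to LT, and the highest, with an adjusted p of 0.0015 in edgeR, was not called. The median over the 10 units was -0.30, against -0.05 over all units.

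For the remaining families a single other gene could be measured. Ypel5 averaged 138 ± 38.4 CPM for SA, 113 ± 2.37 for IBA, 114 ± 2.86 for Ent and 209 ± 34.1 for ET (SD, 3 libraries each), and LT stood at 187 ± 25.7 CPM (SD, n = 2). Between IBA and Ent it differed by 0.01 ± 0.19 on the log2 scale (edgeR adjusted p = 0.979), beside 1.90 in Ypel1, and 0.72 ± 0.21 from IBA to LT (edgeR adjusted p = 0.0118). The unit with Jpt2, merged with other names, had 0.77 ± 0.29 from IBA to LT (edgeR adjusted p = 0.0409). Neither unit was called in any comparison.

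**Figure D3:**
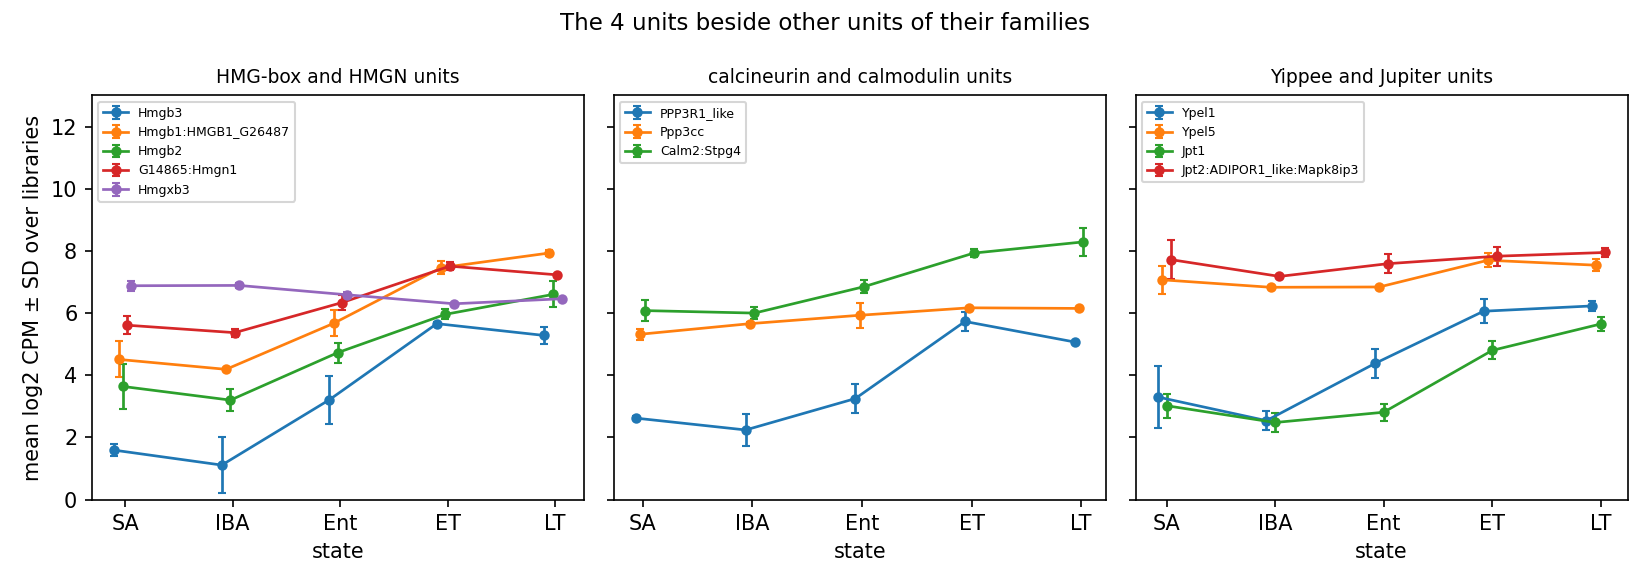
Mean log2 CPM (vertical axis, error bars are the SD over 3 libraries, 2 in LT) by state for the 4 units and for other units of their families: high mobility group units, calcineurin and calmodulin units, and Yippee and Jupiter units. Hmgb1 and Hmgb2, like Hmgb3, stand above IBA from Ent on, Calm2:Stpg4 stands highest in torpor, and Ppp3cc lies within 39.9 to 71.5 CPM on average in every state.

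The units most like each member were found by Pearson correlation of log2 CPM over the 14 libraries, among the other single-gene units. All these libraries fall into the same 5 states, so that a high r mostly describes a shared order of the states. For Hmgb3 they were Polr3f, a subunit of RNA polymerase III, with r = 0.985, Polh, a translesion DNA polymerase, with 0.982, and Gpr89a, with 0.982. For Ypel1 they were H2AFV_gene3204, named after a histone H2A variant, with 0.989, Gmnn, the replication inhibitor geminin, with 0.975, and Dazap2, with 0.973. Ubxn4, G8262 and Klhl15 were closest to Jpt1, with 0.973, 0.972 and 0.972, and Lmbrd2, Hnrnpdl and PIGA to PPP3R1_like, with 0.977, 0.976 and 0.976. None of the 12 lies next to the member it resembles. With Spearman's rho in place of Pearson's r, the first 3 units shared 0, 1, 1 and 0 names with these for Hmgb3, Ypel1, Jpt1 and PPP3R1_like, so that the names depend on the measure.

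Most of the 12 units resembled a member in shape and not in size. From IBA to LT all 12 were called higher by edgeR, as were 9.69% of all units, and their likeness to members chosen on this contrast fixes that direction. They had log2 fold changes from 0.94 ± 0.13 in Ubxn4 to 2.66 ± 0.23 in Dazap2, below the 2.88 to 4.08 of the members. Of these calls 5 were lost in an alternative: those of H2AFV_gene3204, Klhl15, Ubxn4 and Lmbrd2 without LT replicate 1, of Gpr89a, Ubxn4 and Lmbrd2 without LT replicate 3, of Lmbrd2 without IBA replicate 2 or 3, and of H2AFV_gene3204 and Ubxn4 with season added, with adjusted p up to 0.0047. The pairwise r of the members ran from 0.828 between Ypel1 and Jpt1 to 0.934 between Hmgb3 and PPP3R1_like, over the same 14 libraries. Seen from Hmgb3, PPP3R1_like ranked 179 and Jpt1 595 among the single-gene units.

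Markers of liver cells were checked against the label of the tissue. Of 8 hepatocyte markers, 7 had a unit, and their summed level was 21200, 27700 and 16800 CPM in SA, 28700, 20500 and 22300 in IBA and 15000, 12500 and 12700 in Ent. It was 10800, 5830 and 8570 CPM in ET and 11500 and 7310 CPM in LT. Hepatocyte genes were thus abundant in every library, with Apob, of lipoprotein particles, the highest of the list by its mean over all libraries at 2280 to 5440 CPM, though not in every state, and the sum was lower in every torpid library than in every other one. Of the endothelial markers 2 of 5 had a unit, Pecam1 and Kdr, whose sum was 132 to 201 CPM in SA, 166 to 184 in IBA, 153 to 186 in Ent, 84.7 to 139 in ET and 73.8 to 91.2 in LT. Sox9 was the only 1 of 4 cholangiocyte markers with a unit, at 16.5 to 46.1 CPM in SA, IBA and Ent and 7.07 to 18.1 CPM in ET and LT. Cd68 was the only 1 of 6 Kupffer cell markers, inside a unit merged with 6 other names, at 236 to 607 CPM. Stellate cell, leukocyte and cycling cell markers, 5, 4 and 3 genes, had 0 units and were not analysed here. The hepatocyte sum thus stood lower where the 4 units stood higher, although not each marker did: Apob had a mean of 3780 CPM in LT and 3230 in SA, and the unit with Apoa1 1430 CPM in ET and 1400 in SA. The endothelial and Sox9 values were low in torpor with an overlap between ET and the warm states, and the part of these cells in the rise of the 4 units was not tested.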

How the data were processed

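The authors trimmed the reads with cutadapt, aligned them to the HiC_Itri_2 genome with BWA, set the extent of each gene body with fstitch, left out the first bases after each start site, merged overlapping genes and counted uniquely aligned reads with featureCounts. As deposited, the table holds these raw read counts, without normalization. Here they were fitted in edgeR 4.0.16 (R 4.3.3) with TMM factors and a quasi-likelihood model of the 5 states over all 14 libraries and 6324 units. A prior count of 2 entered log2 CPM. The steps were tested on simulated data.

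The 4 members and the gene lists were chosen with earlier results of these data known. Also named, with a few left out, are neighbours by position, the 3 units most correlated with each member, all measured units of the HMGB, Yippee, Jupiter, calcineurin and calmodulin lists, and units of other lists past the threshold. Alternatives were upper-quartile factors, total counts, DESeq2 1.42.0, limma-voom (limma 3.58.1), single-gene units, a mean of at least 50 counts, a replicate block, season, an adjusted p of 0.05 and each library left out. Protein and promoter sequences were not used here. Tables and plots used Python 3.11.15, numpy 2.4.6, pandas 2.3.3, scipy 1.17.1 and matplotlib 3.10.9.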

Additional observations from a re-analysis of the deposited data

How the results depend on the processing

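No member changed direction under another scaling, tool, filter, block or season term. Under DESeq2 the calls of Hmgb3 and Ypel1 from IBA to Ent (log2 fold changes 2.13 and 1.92) and of Hmgb3 from SA to Ent (1.83) passed the threshold. At an adjusted p of 0.05 in edgeR, Hmgb3, Ypel1 and PPP3R1_like passed from IBA to Ent (2.09, 1.90 and 1.08) and Hmgb3 from SA to Ent (1.82). Adding season moved IBA to LT to 4.99 in Hmgb3, 3.12 in Ypel1 and 3.67 in Jpt1, with 3.24 in PPP3R1_like, and could not be run for comparisons with ET. The cause was not tested for any of these changes.

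Leaving out 1 library at a time, differences not past the threshold changed sign in Hmgb3 from SA to IBA (-1.07 to 0.03, the highest without IBA replicate 1), in Jpt1 from SA to Ent (-0.41 to 0.03, the highest without SA replicate 2) and in Ypel1 from ET to LT (-0.05 to 0.29, the lowest without ET replicate 3). Hmgb3 from IBA to LT ranged from 3.78 to 4.87, the highest without IBA replicate 3. The cause was not tested.

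Of the 14 neighbours, DESeq2 called 1 in SA to IBA, 1 in IBA to Ent, 3 in SA to Ent, 2 in Ent to ET and 3 in IBA to LT. An adjusted p of 0.05 called 1, 1, 4, 3 and 9. With season added edgeR called 0 from IBA to LT, where 10 had an unadjusted p of 0.05 or less without it, and with 1 library left out 0 to 2, with 2 without SA replicate 2 and 0 without LT replicate 1 or 3. The cause was not tested.

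Over all units, DESeq2 called 221 (SA to IBA), 447 (IBA to Ent), 643 (SA to Ent), 937 (Ent to ET), 37 (ET to LT) and 2016 (IBA to LT), where edgeR called 1, 2, 49, 140, 0 and 1102. An adjusted p of 0.05 called 330, 1018, 1485, 1819, 17 and 3151. Leaving out 1 library at a time, the count ran from 4 (without Ent replicate 2 or 3) to 51 in SA to Ent, from 0 (without Ent replicate 1 or ET replicate 2) to 198 in Ent to ET, with 6 without ET replicate 1 and 7 without Ent replicate 2, and from 242 (without LT replicate 1) to 1220 in IBA to LT, so that the shares over all units move with single libraries. SA to IBA ran from 1 to 12, IBA to Ent from 0 to 4, and ET to LT stayed at 0. With season added the counts were 2, 0, 16 and 363 in SA to IBA, IBA to Ent, SA to Ent and IBA to LT. The cause was not tested. A fit with the replicate block called 25 in SA to Ent, 52 in Ent to ET and 785 in IBA to LT and changed no call of a member in SA to IBA, IBA to Ent, SA to Ent and ET to LT, the comparisons in which members were tested. In their deviation from the state means, same-numbered libraries had a median r of 0.03 over 26 pairs (-0.26 to 0.23). Libraries with different numbers had -0.01 over 52 pairs (-0.34 to 0.38). With so few libraries per state these values cannot exclude a pairing, but the labels give each library its own animal number. Total counts called 96 higher and 69 lower from Ent to ET and 730 and 414 from IBA to LT, where TMM gave 64 and 76, and 613 and 489. Hmgb3 had 9 to 27 reads per library in SA and 3 to 24 in IBA, and whether depth or the spread between animals limits that comparison was not tested.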
